A study of Mus musculus with 10 samples.

Results

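The 10 genes described here mark lipid-associated macrophages, the macrophages that take up and store lipid in fat tissue, in atherosclerotic vessels and in many tumors. They are Trem2, Apoe, Gpnmb, Spp1, Lpl, Fabp5, Cd9, Lgals3, Cd36 and Plin2, and they were picked by symbol. All 10 were listed in both tables of the study, out of 23202 listed for macrophages and 19720 for whole tumors, and all 10 libraries were used. RNA sequencing was done on mammary tumors of 15-week-old B6:MMTV-PyMT mice, in which the mammary tumor virus promoter drives the polyoma middle T oncogene in mammary epithelium. Every mouse carried the floxed alleles Cxcr4fl/fl. Mice labelled cKO also carried LysmCre, a Cre recombinase driven by a myeloid promoter that is active in macrophages and in neutrophils, and the controls were littermates without Cre. Macrophages, sorted by surface F4/80 and CD11b, were taken from cKO mice 725, 746 and 867 and from control mice 706, 720 and 775. Whole-tumor RNA was from cKO mice 725 and 746 and control mice 706 and 720. Tumors were matched in size, per the labels. Each library of a table came from a different mouse, so the spread within a group is a spread between mice.

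Lipid-associated macrophages sense lipids and lipoproteins through TREM2, a surface receptor that signals through the adaptor TYROBP. They hydrolyse and import fatty acids, hold them in lipid droplets and secrete apolipoprotein E, osteopontin and galectin. Several of these genes are also used outside macrophages. Mammary epithelium makes milk fat with the same uptake and droplet proteins, capillary endothelium and fat cells carry CD36, and tumor epithelium can make osteopontin.

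A level is given in CPM, reads per 1e+06 reads of the library. A log2 difference is the mean of log2(CPM + 1) in cKO libraries less that in controls, fitted with limma across all genes. Macrophage libraries held 14.4 to 25.2 M reads (M, 1e+06) and those of tumors 34.2 to 53.4 M. Cxcr4, the targeted gene, held 24.1 to 165 CPM in macrophage libraries labelled cKO and 14.4 to 135 CPM in controls, so the label does not show in its level there. In whole tumors both libraries labelled cKO (47.9 and 57.6 CPM) lay above both controls (29.8 and 33.4 CPM). That order held for 21.2% of all genes tested in tumors, and the log2 difference was 0.72 (limma adjusted p = 0.819). Whole-tumor RNA comes from all cells of the tumor, while LysmCre acts in myeloid cells. The floxed part of the gene is not given in the sources used here, so the deletion could not be checked from these levels. Every direction below is that of libraries labelled cKO. The sort was enriched for macrophage transcripts but not pure. The 12 macrophage identity genes, led by Adgre1 (F4/80) and Cd14, summed to 2462 to 3025 CPM in libraries labelled cKO, to 2696 and 2731 CPM in controls 706 and 720, and to 1207 CPM in control 775. The 10 luminal epithelial genes, led by Cdh1 and Krt18, summed to 2638 to 3538 CPM in libraries labelled cKO and 2792 to 3188 CPM in controls. Control 775 and cKO 867 stood apart: endothelial genes, led by Cdh5 and Pecam1, summed to 107 and 290 CPM there and to 16.0 to 27.2 CPM in the other 4 libraries, and fibroblast genes, led by Col3a1 and Dcn, to 501 and 1295 CPM against 65.2 to 160 CPM. In bulk libraries, fewer cells of a type and less RNA per cell cannot be told apart.

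Promoter sequences were looked at for members whose levels were partly alike over the macrophage libraries or led the list. RefSeq (GRCm38.p6) held start sites for 8 of the 10 members, and the 250 bases before 11 such starts were searched on both strands for 6 motifs. The motifs were the E-boxes CACGTG and CACATG, the AP-1 site TGANTCA, the PU.1-type site GAGGAAGT, the TATA box TATAAA and the direct repeat DR1 read by PPAR and RXR receptors. Fabp5 was the member closest to Trem2 over the macrophage libraries, but it and Lpl had no start site there. Trem2 and Gpnmb, the next closest member, are shown for levels that were partly alike, and Spp1 because it was the most abundant member. Trem2 and Gpnmb were both highest in control 706 and low in control 775 and cKO 867. Their log2 deviations from the mean had opposite signs in cKO 725 (0.35 and -0.15) and cKO 746 (-0.33 and 0.23). Each sequence shown is on the plus strand and reads 5′ to 3′ up to the base before the start, with motif matches in capitals. Trem2 lies at chr17:48346151-48346400, Gpnmb at chr6:49036268-49036517 and Spp1 at chr5:104434861-104435110.
Trem2: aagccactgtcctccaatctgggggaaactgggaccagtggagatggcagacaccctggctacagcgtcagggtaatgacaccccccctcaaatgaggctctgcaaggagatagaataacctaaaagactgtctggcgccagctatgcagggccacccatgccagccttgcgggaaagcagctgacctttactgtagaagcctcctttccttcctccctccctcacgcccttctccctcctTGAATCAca
Gpnmb: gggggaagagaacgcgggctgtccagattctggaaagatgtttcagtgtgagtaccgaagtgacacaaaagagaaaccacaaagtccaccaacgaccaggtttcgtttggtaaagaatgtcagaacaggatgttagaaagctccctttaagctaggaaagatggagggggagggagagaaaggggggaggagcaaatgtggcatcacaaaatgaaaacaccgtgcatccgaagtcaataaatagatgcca
Spp1: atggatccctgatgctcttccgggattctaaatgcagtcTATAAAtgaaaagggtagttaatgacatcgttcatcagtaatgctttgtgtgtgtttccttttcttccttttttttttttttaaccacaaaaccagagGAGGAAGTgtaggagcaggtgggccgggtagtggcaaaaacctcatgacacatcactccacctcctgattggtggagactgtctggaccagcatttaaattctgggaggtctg
Trem2 held TGANTCA 9 bases before its start, a motif found in 6.75% of 32851 such windows in the genome. Spp1 held GAGGAAGT 113 bases before its start (2.44% of windows) and TATAAA 211 bases before it (12.4%). Gpnmb held none of the 6. CACATG was found for Cd9 (12.3% of windows) and TATAAA also for Apoe, while CACGTG (6.02%) and DR1 (0.0335%) were found before no member start. A match is a run of letters and not a measured binding site.

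No member passed the test in macrophages, and the list was split in direction. The limma fit covered 16304 genes, of which 0 passed at an adjusted p of 0.05 (0% called) and 428 had an unadjusted p under 0.05. All 10 members were tested, and 5 had a positive and 5 a negative difference, against 54.7% and 45.3% of all genes. The median over the members was -0.06 log2 units, beside 0.05 over all genes tested. The groups overlapped for every member, whereas for 3.77% of all genes the whole cKO group lay above the controls and for 3.45% below them. Spp1 and Cd36 were the 2 members with an unadjusted p under 0.05, in opposite directions (shares of all genes: 1.09% lower and 1.53% higher). The adjusted p of every member was 0.9998.

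**Figure D1:**
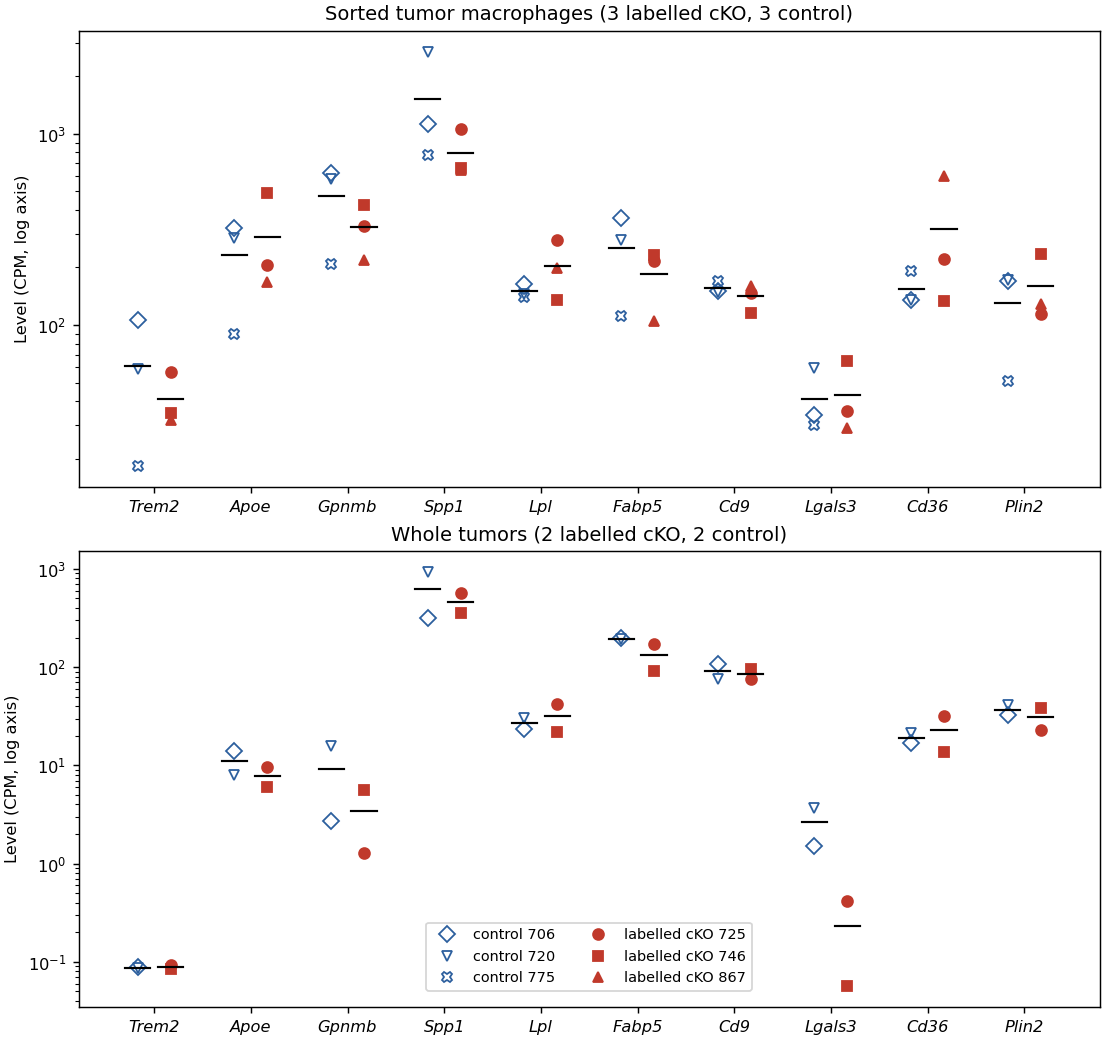
Level of each member in CPM on a log axis, in sorted macrophages (top) and whole tumors (bottom), with open blue symbols for controls, filled red symbols for libraries labelled cKO, a symbol shape per mouse and a bar at the group mean. The groups overlap for every member in macrophages, and in tumors Trem2 sits near 0.1 CPM in all 4 libraries while Spp1 is at 315 to 931 CPM.

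Trem2, which encodes the lipid-sensing receptor, held 106 CPM in control 706, 59.1 CPM in control 720 and 18.3 CPM in control 775. The libraries labelled cKO held 56.5 CPM (725), 34.8 CPM (746) and 31.7 CPM (867), all inside the range of the controls. Means were 61.2 ± 44.1 and 41.0 ± 13.5 CPM (SD, n = 3 each), a log2 difference of -0.30 (95% interval -1.21 to 0.62). The direction rested on control 706: without it the difference was 0.26, without control 775 it was -0.98, and without each of the other 4 libraries it was -0.55 to -0.14. In whole tumors Trem2 was at 3 reads in cKO 746 and in both controls and at 5 reads in cKO 725, or 0.085 to 0.094 CPM, and at a mean under 1 CPM it was not tested. For cKO 725 those 5 reads allow 0.030 to 0.219 CPM (exact Poisson interval, counting error only). Tyrobp, the signaling adaptor of TREM2, was named outside the fixed rule. It held 95.4, 54.7 and 23.0 CPM in control macrophages (706, 720, 775) and 37.3, 73.0 and 35.2 CPM in those labelled cKO (725, 746, 867). Its lowest library was the same control 775.

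Gpnmb, a lysosomal and surface glycoprotein of lipid-laden macrophages, held 627, 582 and 208 CPM in controls 706, 720 and 775. The libraries labelled cKO held 328 CPM (725), 426 CPM (746) and 220 CPM (867). Controls 706 and 720 were the highest of the 6, and the low control 775 put the groups in overlap. The log2 difference was -0.43 (95% interval -1.14 to 0.27), and it was -0.95 without control 775, -0.15 without control 706, -0.18 without cKO 867, -0.21 without control 720 and -0.66 without cKO 746. In tumors Gpnmb held 2.69 CPM (706) and 15.6 CPM (720) in controls and 1.27 CPM (725) and 5.56 CPM (746) in tumors labelled cKO. The log2 difference was -1.02 (95% interval -2.83 to 0.79, limma adjusted p = 0.879). It was 0.07 without control 720, -0.26 without cKO 725, -1.78 without cKO 746 and -2.10 without control 706.

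Fabp5, which carries fatty acids in the cytoplasm, had an order close to that of Trem2 and Gpnmb. It held 365, 279 and 111 CPM in controls 706, 720 and 775 and 216, 232 and 104 CPM in cKO libraries 725, 746 and 867. The log2 difference was -0.37 (95% interval -1.11 to 0.37), and it was -0.02 without control 706, -0.005 without cKO 867, -0.21 without control 720 and -0.87 without control 775. Controls 706 and 720 were again highest, and 775 and 867 lowest. In tumors it was 1 of 2 members whose groups did not overlap: 197 and 193 CPM in controls 706 and 720, and 172 and 91.3 CPM in tumors labelled cKO 725 and 746. Both cKO tumors lay below both controls for 14.3% of the 14630 genes tested there and above them for 21.2%. The log2 difference was -0.63 (SE 0.25, 95% interval -1.16 to -0.10), with an unadjusted p of 0.0225 and a limma adjusted p of 0.819. It was -1.09 without cKO 725 and -0.18 without cKO 746. Of the 50-base stretches of the longest Fabp5 coding transcript, 21.1% also occur in other genes, mostly the pseudogenes Gm6166 and Gm14328 and the copy Fabp5l2, so its level is uncertain where counting could split such reads. Gm6166 held at most 11.6 CPM in macrophages and 3.41 CPM in tumors.

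Apoe, the lipoprotein component that macrophages secrete to carry cholesterol away, held 321, 284 and 90.1 CPM in controls 706, 720 and 775. The libraries labelled cKO held 206 CPM (725), 493 CPM (746) and 168 CPM (867). The highest and the lowest library were thus cKO 746 and control 775. The log2 difference was 0.35 (95% interval -0.47 to 1.17), and its sign turned to -0.12 without cKO 746 and to -0.23 without control 775, and it was 0.51 to 0.68 without each of the other 4. In tumors Apoe held 14.0 and 7.97 CPM in controls 706 and 720 and 9.63 and 6.05 CPM in tumors labelled cKO 725 and 746, a difference of -0.42 (limma adjusted p = 0.933). It was -0.05 without control 706, -0.13 without cKO 746, -0.72 without cKO 725 and -0.79 without control 720.

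Spp1 encodes osteopontin, a secreted ligand of integrins and CD44, and was the most abundant member in both tables. Control macrophages held 1126 CPM (706), 2679 CPM (720) and 775 CPM (775), and those labelled cKO held 1056 CPM (725), 663 CPM (746) and 650 CPM (867). Control 720 alone stood far above the rest. The log2 difference of -0.79 (SE 0.36, 95% interval -1.53 to -0.04) had an unadjusted p of 0.0391 and a limma adjusted p of 0.9998. Without control 720 it was -0.28, and without control 775 it was -1.17. In tumors Spp1 was highest in the same mouse: 931 CPM in control 720, against 315 CPM in control 706 and 565 and 356 CPM in tumors labelled cKO 725 and 746. The tumor difference of -0.27 (limma adjusted p = 0.921) was 0.51 when control 720 was left out, 0.06 when cKO 746 was, -0.60 when cKO 725 was and -1.05 when control 706 was. Milk and secretory epithelial genes, led by Csn3 and Lcn2, were also highest in the control 720 macrophage library (6336 CPM in sum, against 2344 to 4817 CPM in the other 5). The order differed elsewhere. Control 706 had the lowest sum (2344 CPM) with Spp1 at 1126 CPM, and cKO 746 had 4817 CPM with Spp1 at 663 CPM. In tumors the sum was highest in cKO 746 (7520 CPM), with 6713 CPM in control 720. The part of milk and secretory genes in the Spp1 level was not tested. The gene model Gm42793, which overlaps Spp1 on the same strand, held up to 22.8 CPM.

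Lgals3 encodes galectin-3, a carbohydrate-binding protein secreted by macrophages and by epithelium. It was at 28.8 to 64.5 CPM in all 6 macrophage libraries, with 34.0, 59.7 and 29.999 CPM in controls 706, 720 and 775 and 35.4, 64.5 and 28.8 CPM in those labelled cKO 725, 746 and 867. The groups covered nearly the same range. The log2 difference of 0.04 turned to -0.29 without cKO 746, to -0.07 without control 706 and to -0.15 without control 775, and it was 0.13 to 0.33 without each of the other 3. Tumors held little of it: 1.52 and 3.73 CPM in controls 706 and 720, and 0.412 and 0.0565 CPM in tumors labelled cKO 725 and 746, where the last value is 2 reads. The tumor groups did not overlap, but the log2 difference of -1.50 had a 95% interval from -3.55 to 0.55 (limma adjusted p = 0.850). It was -3.14 with a pseudocount of 0.1 CPM and -0.53 with 5 CPM.

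Lpl, the lipase that frees fatty acids from lipoproteins, held 165, 145 and 141 CPM in controls 706, 720 and 775 and 280, 135 and 198 CPM in libraries labelled cKO 725, 746 and 867. Controls were tight, and the spread lay among libraries labelled cKO, with 725 highest and 746 lowest of all. Their difference in log2 was 0.38 (95% interval -0.18 to 0.95), with 0.13 when cKO 725 was left out and 0.65 when cKO 746 was. Mouse 725 was also highest in tumors, at 41.7 CPM, beside 21.9 CPM in cKO 746 and 23.3 and 30.1 CPM in controls 706 and 720. The tumor difference of 0.19 (limma adjusted p = 0.955) turned to -0.26 without cKO 725, and leaving out control 706, control 720 or cKO 746 gave 0.008, 0.36 and 0.64.

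Cd36, a receptor for fatty acids and oxidized lipoproteins, held 135.5 CPM in both control 706 and control 720 and 192 CPM in control 775. The libraries labelled cKO held 222 CPM (725), 133 CPM (746) and 603 CPM (867). A single library, cKO 867, set the group mean of 319 ± 250 CPM against 154 ± 32.9 CPM in controls (SD, n = 3 each). This gave a log2 difference of 0.77 (SE 0.37, 95% interval 0.01 to 1.54), with an unadjusted p of 0.0463 and a limma adjusted p of 0.9998, and it was 0.17 without cKO 867 and 1.26 without cKO 746. In the same library 9 endothelial genes summed to 290 CPM, with Cdh5 at 102 CPM against 3.47 to 30.3 CPM in the other 5. Fabp4, a fatty acid carrier of endothelium and fat cells, was there at 35.6 CPM against 0.295 to 15.5 CPM. Monocyte genes, led by Ccr2 and Ly6c1, summed to 1193 CPM there and to 235 to 469 CPM elsewhere. Ccr2 made up most of that sum, at 979 CPM there against 140 to 273 CPM in the other 5. Ly6c1 was at 38.7 CPM there, inside the 15.8 to 101 CPM of the other 5. Adipocyte genes, led by Cfd and Plin4, summed to 10.3 CPM there and to 1.04 to 3.05 CPM elsewhere, each of the 6 listed ones being at 0 in some library. The defining adipocyte genes Adipoq, Lep and Adrb3 were not among the genes listed for macrophages. The order of endothelial genes and Cd36 differed elsewhere. Control 775 had the next highest endothelial sum (107 CPM), with Cd36 at 192 CPM. In cKO 725 that sum was 27.2 CPM, with Cd36 at 222 CPM. The part of endothelial cells, monocytes and fat cells in the Cd36 level was not tested. In tumors Cd36 held 16.7 and 21.4 CPM in controls 706 and 720 and 31.7 and 13.6 CPM in tumors labelled cKO 725 and 746. That difference of 0.13 (limma adjusted p = 0.969) turned to -0.45 without cKO 725 and to -0.04 without control 706, and it was 0.30 without control 720 and 0.71 without cKO 746.

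Plin2, which coats lipid droplets, held 170, 172 and 50.9 CPM in controls 706, 720 and 775 and 114, 234 and 129 CPM in libraries labelled cKO 725, 746 and 867. As for Apoe, cKO 746 was highest and control 775 lowest. The log2 difference of 0.40 (95% interval -0.37 to 1.17) turned to -0.17 without control 775 and to -0.06 over the 4 mice other than 775 and 867. It was 0.09 without cKO 746 and 0.51 to 0.69 without each of the other 4 libraries. In tumors the values were 32.4 and 40.9 CPM in controls 706 and 720 and 23.2 and 38.6 CPM in tumors labelled cKO 725 and 746. Their difference of -0.27 (limma adjusted p = 0.918) turned to 0.08 without cKO 725, and leaving out control 720, control 706 or cKO 746 gave -0.11, -0.44 and -0.63.

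Cd9, a tetraspanin of the surface of many cell types, varied least. It held 151, 149 and 171 CPM in controls 706, 720 and 775 and 148, 116 and 160.5 CPM in cKO libraries 725, 746 and 867. Only cKO 746 lay clearly apart, below the other 5. On the log2 scale the difference was -0.16 (95% interval -0.67 to 0.35), and it was -0.03 without cKO 746, -0.26 without cKO 867 and -0.10 without control 775. In tumors it held 106 and 74.9 CPM in controls 706 and 720 and 75.5 and 95.4 CPM in tumors labelled cKO 725 and 746. That difference of -0.07 (limma adjusted p = 0.971) turned to 0.09 without cKO 725 and to 0.18 without control 706, and it was -0.24 without cKO 746 and -0.32 without control 720. The spans of 2 noncoding genes on the opposite strand overlap Cd9, and whether counting used the strand is not given in the sources used here.

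**Figure D2:**
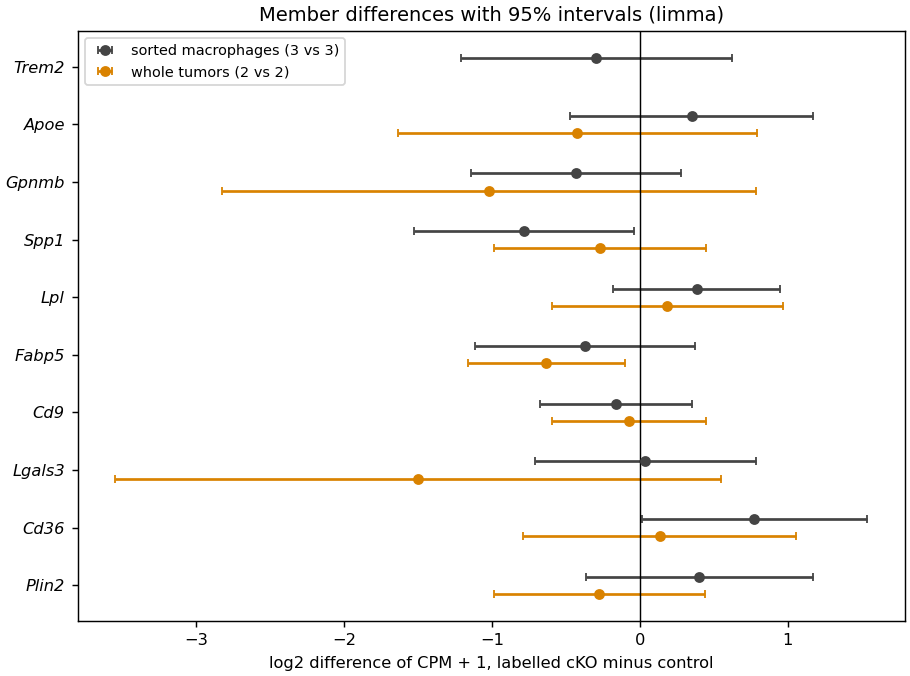
Log2 difference of CPM + 1, labelled cKO minus control, for each member with its 95% interval from limma, in sorted macrophages (dark, 3 against 3) and whole tumors (orange, 2 against 2; Trem2 not tested). Spp1 (-0.79) and Cd36 (0.77) in macrophages and Fabp5 (-0.63) in tumors have intervals that leave out 0, and none passed after adjustment over all genes.

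Of 9 members tested in tumors, 7 had a negative and 2 a positive difference, beside 43.4% of all genes with a negative and 56.6% with a positive one. Their median was -0.27 log2 units, against 0.09 over all 14630 genes tested with limma. Of those genes 0 passed (0% called), and 856 had an unadjusted p under 0.05, 1.95% of genes lower and 3.90% higher. Macrophage identity genes summed to 138 and 166 CPM in tumors labelled cKO and to 158 and 160 CPM in controls, so the groups overlapped in that measure too. Of 8 fibroblast genes, 7 had a negative difference in tumors (median -0.49). Both tumors labelled cKO lay below both controls for 5 of the 8, beside 14.3% of all genes tested. Their sums did not overlap, at 468 and 574 CPM in tumors labelled cKO and 754 and 939 CPM in controls. None of the 8 passed, and the part of fibroblast genes in the member levels was not tested. Both tables share mice, so their directions are not separate evidence.

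The members did not vary over the macrophage libraries as a block. Trem2, Gpnmb and Fabp5 were low in control 775 and cKO 867 and highest in control 706. Apoe and Plin2 were high in cKO 746 and low in control 775. Lgals3 was high in cKO 746 and control 720. Spp1, Lpl and Cd36 each peaked in a different mouse, 720, 725 and 867. As a measure of likeness, the root mean square difference from Trem2 in log2(CPM + 1), centred on each gene's mean over the 6 libraries, was 0.38 for Fabp5 and 0.43 for Gpnmb. It was 0.66 to 0.83 for Plin2, Apoe, Spp1, Lpl, Cd9 and Lgals3 and 1.29 for Cd36. Among 6582 genes compared, those averaging 20 CPM or more, the nearest to Trem2 were Cyfip2 (0.16), 4930430E12Rik (0.28), Glipr1 (0.31), H4c17 (0.33) and Slamf7 (0.33). Cyfip2, an actin regulator, held 52.2, 36.5 and 10.3 CPM in controls 706, 720 and 775 and 37.6, 23.7 and 17.9 CPM in libraries labelled cKO 725, 746 and 867. With 6 libraries and so many genes, such nearness is a description of these libraries. Over the 10 members, the median deviation from each member's mean was 0.26 in control 706, 0.40 in control 720 and -0.60 in control 775, and 0.03, -0.05 and -0.45 in cKO 725, 746 and 867. The 2 lowest libraries were those with the most endothelial and fibroblast RNA, and control 775 also had the lowest sum of macrophage identity genes. The part of that makeup in the member levels was not tested. When each library was scaled to its macrophage identity sum instead, the median of all genes was -0.28, and no member passed (limma adjusted p of at least 0.987). The differences were then -1.14 for Spp1, -0.78 for Gpnmb, -0.72 for Fabp5, -0.63 for Trem2, -0.51 for Cd9 and -0.31 for Lgals3. Apoe, Lpl and Plin2, at 0.35 to 0.40 before, came to 0.001, 0.03 and 0.06, and Cd36 to 0.42. Relative to the median of all genes the values ran from -0.86 for Spp1 to 0.71 for Cd36, with -0.35 for Trem2 and 0.28 for Apoe.

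**Figure D3:**
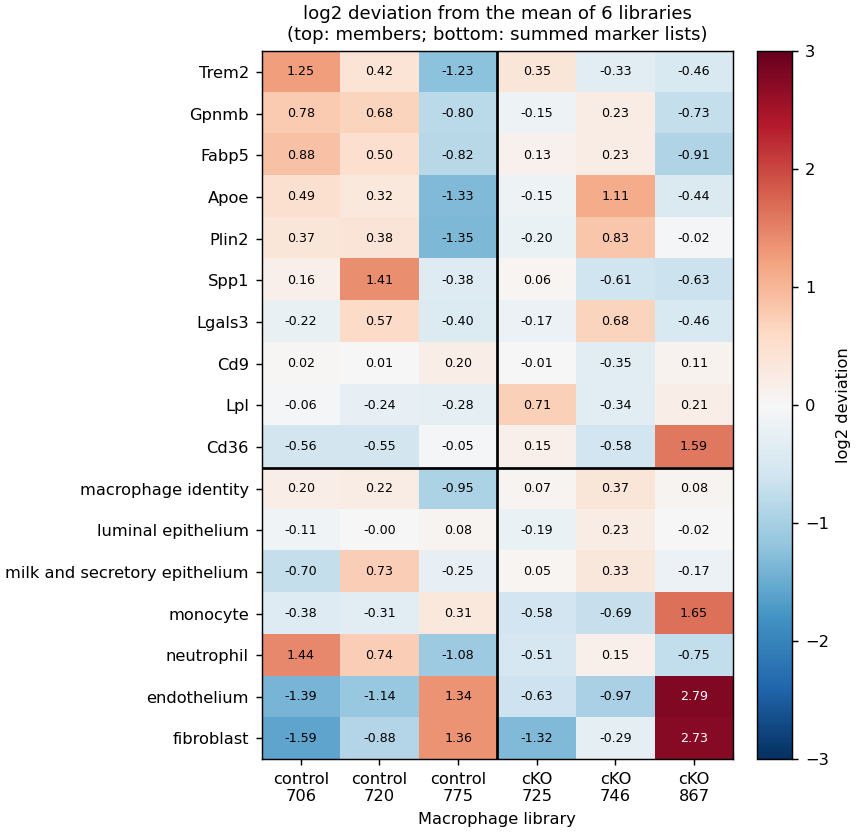
Log2 deviation of each member (top, log2 of CPM + 1) and of summed marker lists (bottom, log2 of summed CPM) from its mean over the 6 macrophage libraries, in columns by library. Control 775 and cKO 867 are low for Trem2, Gpnmb and Fabp5 and high for endothelial and fibroblast genes, and Cd36 is at 1.59 in cKO 867.

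Set against the whole tumor of the same mouse, the members formed 3 tiers. The tables were normalized separately, so these ratios of CPM were not tested. The protein-coding share of reads was 67.6% to 80.1% in macrophages and 49.7% to 56.5% in tumors. In the 4 mice with both libraries, Trem2, Gpnmb, Apoe and Lgals3 were 16.0-fold or more above the tumor in each mouse. For comparison, identity genes plotted beside them were lowest at 11.7-fold for Itgam (CD11b) and 13.2-fold for C1qb and highest at 82.7-fold for C1qa, with 18.9-fold to 27.9-fold for Adgre1. Tyrobp was 10.99-fold to 118-fold above the tumor. Of these 5 genes, all but Adgre1 lie outside the fixed rule. Gpnmb was 37.3-fold to 257-fold above the tumor and Apoe 21.4-fold to 81.5-fold. Lgals3 ranged from 16.0-fold (720) to 1141-fold (746), the last with an interval of 316 to 9424 because the tumor held 2 reads. Trem2 had ratios of 603 (725), 410 (746), 1211 (706) and 687 (720), and the widest counting interval among them, that of mouse 706, was 414 to 5872. A middle tier held Cd36 (6.32-fold to 9.75-fold), Lpl (4.82-fold to 7.06-fold) and Plin2 (4.20-fold to 6.05-fold). Spp1 (1.86-fold to 3.57-fold), Fabp5 (1.25-fold to 2.54-fold) and Cd9 (1.22-fold to 2.00-fold) had the lowest ratios. Luminal epithelial genes, summed, were 1.40-fold to 1.97-fold higher in the sorted library than in the tumor of the same mouse, and the part of epithelial RNA in these ratios was not tested. When both tables were scaled to protein-coding genes, an alternative chosen after the data were seen, 8 of 10 members were above the tumor in every mouse. The exceptions were Fabp5, at 0.901 in mouse 725 and 0.899 in 720, and Cd9, at 0.874 in 746 and 0.989 in 706. In whole tumors luminal epithelial genes summed to 1729 to 1992 CPM, against 2638 to 3538 CPM in the sorted libraries of the same mice. Neither these sums nor the luminal ratios were scaled to protein-coding genes. They therefore cannot be set beside the scaled member ratios.

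**Figure D4:**
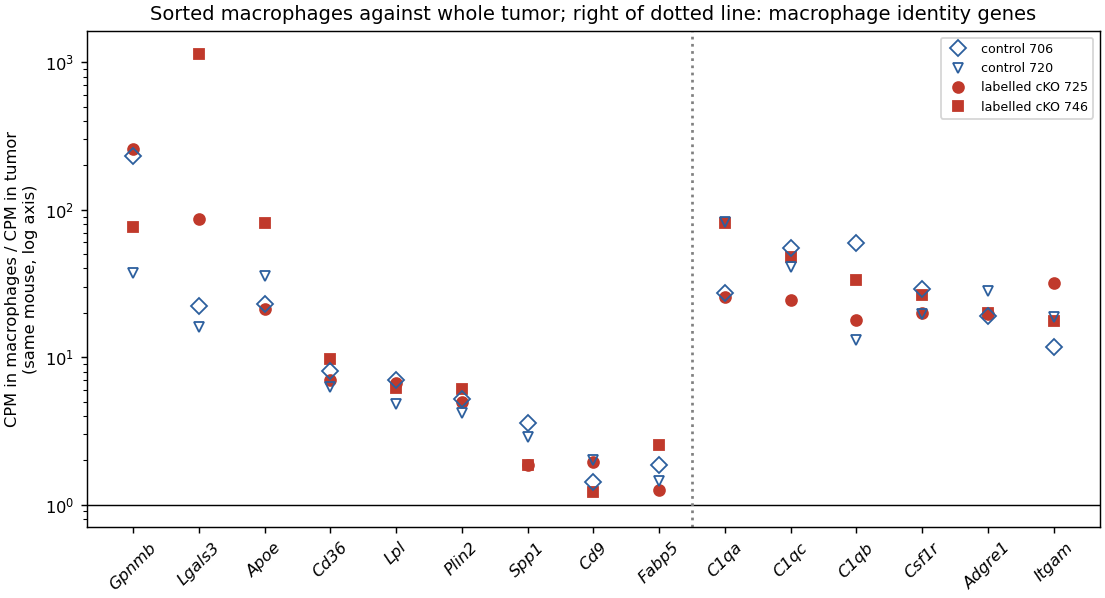
Ratio of CPM in sorted macrophages to CPM in the whole tumor of the same mouse on a log axis, for 9 members (left) and 6 macrophage identity genes (right), with a symbol per mouse and a line at 1. Gpnmb, Lgals3 and Apoe reach the range of the identity genes or exceed it, and Spp1, Cd9 and Fabp5 lie between 1.22 and 3.57; Trem2, at 3 to 5 tumor reads, is left out.

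Levels of different members were compared only per kilobase (kb) of the main coding transcript. In macrophages the order of the means was Spp1 at 768 ± 512, Fabp5 at 221 ± 101, Apoe at 185 ± 99.7, Cd9 at 122 ± 15.0, Gpnmb at 108 ± 48.3, Plin2 at 76.8 ± 32.9, Cd36 at 69.7 ± 53.9, Trem2 at 47.0 ± 28.7, Lpl at 43.1 ± 13.4 and Lgals3 at 29.7 ± 11.1 CPM per kb (SD, n = 6). Apart from Spp1 and Fabp5, neighbors in that order differed by less than the larger SD of the pair. In tumors the order was led by Spp1 (359 ± 187), Fabp5 (166 ± 50.02) and Cd9 (71.7 ± 12.7 CPM per kb, SD, n = 4). Plin2 followed at 17.9 ± 4.19, then Lpl at 7.11 ± 2.20, Apoe at 6.68 ± 2.41, Cd36 at 6.14 ± 2.32, Gpnmb at 1.70 ± 1.75, Lgals3 at 1.01 ± 1.17 and Trem2 at 0.0809 ± 0.0036. Spp1, Fabp5 and Cd9 were thus the members that the whole tumor carried in quantity.

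The wider pathway also gave no call in either table. Over all genes tested, 54.7% were positive in macrophages (median 0.05) and 56.6% in tumors (median 0.09). Beside the counts below, macrophage identity genes themselves were positive for 11 of 12 in macrophages (median 0.32), control 775 being lowest, and for 5 of 10 in tumors (median 0.04). Their part in the list values was not tested. Of 10 genes of TREM2 signaling, 8 had a positive and 2 a negative difference in macrophages (median 0.27), and of 8 tested in tumors 2 were positive and 6 negative (median -0.22). The kinases Lyn and Syk led that list. Syk, which TYROBP recruits, had a difference of 0.33 in macrophages and -0.84 in tumors (limma adjusted p = 0.9998 and 0.878). Of 24 other lipid-associated macrophage genes, 17 were positive and 7 negative in macrophages (median 0.17), and of 22 tested in tumors 13 and 9 (median 0.12). Among its most abundant genes were lysosomal proteases: Ctsd was at 1331 CPM in macrophages labelled cKO and 1601 CPM in controls, and Ctsb at 1159 and 1064 CPM. For lipoprotein and fatty acid uptake, led by Lrp1, Sorl1 and Cd68, 7 of 13 genes tested were positive and 6 negative in each table (medians 0.05 and 0.05). Lrp1, an endocytic receptor for apolipoprotein E, was at 304 CPM in libraries labelled cKO and 375 CPM in controls.

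Genes of lipid droplet storage and breakdown, led by Acsl4, Soat1 and Abhd5, were 8 positive and 5 negative in macrophages (median 0.07) and 6 and 8 in tumors (median -0.14). Soat1, which esterifies cholesterol for storage, was at 322 and 352 CPM in macrophages labelled cKO and in controls. Of 13 genes of cholesterol efflux and its nuclear receptors, 10 were positive and 3 negative in macrophages (median 0.12), and of 12 in tumors 9 and 3 (median 0.30). Abca1, the transporter that loads cholesterol onto apolipoproteins, had a difference of -0.003 in macrophages and 0.09 in tumors, Abcg1 0.09 and 0.18, and Npc1, the lysosomal cholesterol exporter, 0.06 and 0.66. Osteopontin and galectin partners, led by Lamp2, Itgb1 and Cd44, were positive for 11 of 11 genes in macrophages (median 0.14) and for 7 of 11 in tumors (median 0.11). In macrophages Lamp2 and Itgb1 had differences of 0.018 and 0.024, below the median of 0.05 over all genes. Cd44, a receptor of osteopontin, was at 729 CPM in macrophages labelled cKO and 608 CPM in controls, with a difference of 0.28. The MiT/TFE factors Mitf, Tfe3 and Tfeb, which drive lysosomal genes, had differences of -0.04, 0.19 and -0.11 in macrophages and 0.01, -0.33 and -0.14 in tumors. With Tfec, 2 of the 4 were positive and 2 negative in macrophages (median 0.04). Among the fatty acid binding paralogs of Fabp5, Fabp4 alone was tested, with a difference of -0.32 in macrophages and 0.55 in tumors. Fabp2 and Fabp7 reached at most 1.43 and 0.565 CPM in a macrophage library. In these lists the lowest adjusted p among the named genes was 0.833 in tumors and 0.9998 in macrophages (limma).

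The remaining marker lists were low or did not separate the groups. Neutrophil genes, led by Csf3r and Mmp9, summed to 25.4 to 47.5 CPM in macrophage libraries labelled cKO and 20.1 to 116 CPM in controls, with 706 highest. Dendritic cell genes, led by Zbtb46 and Cd209a, summed to 21.5 to 97.6 and 9.17 to 24.97 CPM, T and B cell genes, led by Cd4 and Ms4a1, to 10.8 to 24.5 and 6.81 to 16.1 CPM, and basal epithelial genes, led by Acta2 and Krt14, to 39.0 to 88.5 and 37.7 to 73.2 CPM. The neutrophil gene Cxcr2, the T cell gene Cd3d and the B cell gene Cd79a were not among the genes listed for macrophages.

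By gene identifier, GENCODE vM21 (GRCm38) places Trem2 (ENSMUSG00000023992) on chromosome 17 from 48346401 to 48354147 on the plus strand, with 5 exons in its main coding transcript. Apoe (ENSMUSG00000002985) lies on chromosome 7 from 19696109 to 19699188 on the minus strand, with 4 exons. Spp1 (ENSMUSG00000029304) lies on chromosome 5 from 104435118 to 104441050 on the plus strand, with 6 exons. Cd36 (ENSMUSG00000002944) lies on the same chromosome from 17781690 to 17888801 on the minus strand, with 15 exons. The deposited values sum reads over each gene, so transcripts of these genes cannot be told apart.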

How the data were processed

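The deposited tables hold a log2 value for each gene and library. The submitters' processing notes name the aligner STAR (2.7.8a), the Partek software and the build GRCm38, also called mm10; the normalization formula, annotation and strand setting are not given in the sources used here. Raising 2 to the deposited log2 values and taking off 1 gave 1e+06 as the total of each library, so they were read as log2(CPM + 1). Tests planned on log2(value + 1) were therefore run on the values as they stand. Depth was read from the worth of a single read among values under 1 CPM, of which 83.0% to 89.7% were whole reads within 0.1 read, too few for a count test. Gene starts as deposited matched GENCODE vM21, an annotation of GRCm38, for only 2.19% (macrophages) and 2.29% (tumors) of genes. They thus differ from an annotation of the build that the notes name, and the reason was not tested. Gene positions in the text come from vM21 by identifier and promoter windows from RefSeq, not from the deposited coordinates.

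The tables were fitted separately in R 4.3.3 by limma (version 3.58.1; lmFit, eBayes with a trend) over genes averaging 1 CPM or more, two-sided, with Benjamini-Hochberg adjustment over all genes tested and a threshold of 0.05. The fit was tested on simulated data. The members and the gene lists were chosen with earlier results of these data known. Named genes are the 10 members, the 3 most abundant genes of each pathway list, the 2 most abundant of each marker list, Cxcr4, and the 5 genes nearest to Trem2. One gene that the rule picked is not reported here. Alternatives were pseudocounts of 0.1 and 5, other filters, other scalings (4 for macrophages, 3 for tumors), no trend, and each library left out. Leaving out mice 775 and 867 together, and protein-coding scaling of the ratios, were added after the data were seen.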

Additional observations from a re-analysis of the deposited data

How the results depend on the processing

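Of 160 member values recomputed for macrophages, 150 kept their direction and 10 turned, and of 107 for tumors 98 kept it and 9 turned; none of them passed the threshold, with adjusted p of at least 0.962 and 0.586. Changing the filter or dropping the trend leaves the difference itself as it was. Values under those settings are among the ones that kept their direction, although they could not turn. Apart from left-out libraries, Lgals3 in macrophages turned to -0.025 when scaled to protein-coding genes and to -0.31 when scaled to the macrophage identity sum. Plin2 turned to -0.061 over the 4 mice with both libraries. With a library left out, macrophage differences ranged from -0.98 to 0.26 for Trem2, -0.23 to 0.68 for Apoe, -0.29 to 0.33 for Lgals3 and -0.17 to 0.69 for Plin2. Tumor differences ranged from -2.10 to 0.065 for Gpnmb, -1.05 to 0.51 for Spp1, -0.26 to 0.64 for Lpl, -0.32 to 0.18 for Cd9, -0.45 to 0.71 for Cd36 and -0.63 to 0.083 for Plin2. Why these directions turned was not tested. Leaving out a library gave 0 to 3 calls over all genes in macrophages and 0 to 0 in tumors. The 3 calls came without control 775 and were Sparc (2.45), Amd2 (4.24) and Gm4735 (-2.40), none a member, named here after their values were seen. Medians over the members ranged from -0.20 to 0.12 in macrophages and from -0.45 to -0.11 in tumors. No paired analysis was possible because the mice compared share no number and the labels do not name the partners of size-matched tumors. A gene at 3 reads corresponds to 0.119 to 0.209 CPM in macrophage libraries and 0.0562 to 0.0878 CPM in tumor libraries, which limits Trem2 and Lgals3 in tumors.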
